A study of Mus musculus with 2 samples.

Results

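The cytochrome P450 genes of families 1 to 4 were examined in open chromatin of the mouse urinary bladder. Members were the protein-coding genes of the GENCODE M21 annotation whose symbol is Cyp1, Cyp2, Cyp3 or Cyp4 followed by 1 letter and a number, which left out the families from Cyp5 upward. The rule gave 80 of 21938 protein-coding genes: 3 in family 1, 48 in family 2, 9 in family 3 and 20 in family 4. They lie in 17 clusters or single loci, where a cluster is a run of members with gaps of at most 500 kb.

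Cytochrome P450 enzymes are heme proteins that insert oxygen into drugs, pollutants, steroids and fatty acids, using electrons passed on by cytochrome P450 reductase and cytochrome b5. Family 1 is known for its induction by the aryl hydrocarbon receptor (AHR), which pairs with ARNT and binds DNA elements around the core GCGTG. Families 2 and 3 contain most drug-metabolising enzymes, many of them abundant in liver. Family 4 contains fatty acid and eicosanoid hydroxylases, and the urothelium, the epithelium that lines the bladder, is known to express Cyp4b1, which activates aromatic amines.

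DNase-seq cuts accessible DNA with deoxyribonuclease I, so that sites of open chromatin appear as peaks of cuts and short protected stretches within them as footprints. Both libraries came from whole urinary bladder of B6CASTF1/J females, the first-generation cross of C57BL/6J and CAST/EiJ, at 36 days of age. They are biological replicates 1 and 2, from animals numbered 5 and 6, and form 1 group with no treatment and no control. With 1 group there is nothing to test against, and errors are the SD over these 2 animals. The labels record a shared strain-level donor for both, so that only the animal and biosample numbers state that the animals are distinct.

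The peak lists held 117773 peaks in replicate 1 and 102671 in replicate 2, with 280105 and 247833 footprints. The sources used here give neither depth nor the scaling of peak height. Of the genes open in both animals, 90.2% had the higher start peak in replicate 1. The tissue label was checked on marker genes, counting those with a peak within 500 bp of a transcript start in both animals. All 8 urothelial, all 6 smooth muscle and all 4 fibroblast markers were open, with 2 of 3 endothelial, 1 of 3 immune and 0 of 7 liver markers. Since whole tissue was used, fewer cells with an open site and less opening per cell cannot be told apart, and the cell type behind a peak is not known. CAST alleles differ in sequence from the C57BL/6J reference; how this affects mapping in the P450 clusters was not tested.

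A first set of sequences comes from the start-proximal peaks of 4 open family 4 genes, Cyp4b1, Cyp4f13, Cyp4f16 and Cyp4f39. They are shown because their midpoints fell at nearly the same distance from the start, at -77, -78, -78 and -73 bp along the gene. How common this distance is at open starts of all genes was not counted. Each run is the part of the peak upstream of the gene start, on GRCm38 (mm10), read 5′ to 3′ along the gene. Capitals mark bases that lie inside a footprint in each of the 2 animals.
Cyp4b1, chr4:115647724-115647880, minus strand: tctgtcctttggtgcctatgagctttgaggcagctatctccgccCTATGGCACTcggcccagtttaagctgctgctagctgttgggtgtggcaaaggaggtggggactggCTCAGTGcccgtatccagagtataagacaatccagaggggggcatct
Cyp4f13, chr17:32947403-32947580, minus strand: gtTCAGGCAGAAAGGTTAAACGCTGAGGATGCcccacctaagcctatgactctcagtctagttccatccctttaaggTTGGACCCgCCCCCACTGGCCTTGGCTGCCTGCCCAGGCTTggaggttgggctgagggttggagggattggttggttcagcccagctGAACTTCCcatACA
Cyp4f16, chr17:32536381-32536557, plus strand: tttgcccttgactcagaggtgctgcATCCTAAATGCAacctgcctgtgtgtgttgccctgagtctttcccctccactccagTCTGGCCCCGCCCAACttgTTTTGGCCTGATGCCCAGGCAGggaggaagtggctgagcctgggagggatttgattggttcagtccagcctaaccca
Cyp4f39, chr17:32452541-32452722, plus strand: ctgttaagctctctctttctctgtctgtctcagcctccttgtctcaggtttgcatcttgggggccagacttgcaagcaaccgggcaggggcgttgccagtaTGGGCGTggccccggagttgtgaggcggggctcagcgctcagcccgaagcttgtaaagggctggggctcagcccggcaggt

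A second set of sequences lies in peaks at the other end of Cyp4f genes, at or just after the stop codon in 4 of them, and in the neighbouring pseudogene Cyp4f41-ps. Each 30-base stretch below holds a CTCF core (CCA, any pair of bases, AG, any pair of bases, GGC, on either strand) inside a footprint in each animal, and capitals mark that core. CTCF is the zinc finger protein that anchors chromatin loops and insulates neighbouring domains.
Cyp4f17, chr17:32528953-32528982, plus strand: cacccagagCCATCAGAGGGCgctgcagga
Cyp4f16, chr17:32551292-32551321, plus strand: cacccagagCCATCAGAGGGCgctgcagga
Cyp4f37, chr17:32635228-32635257, plus strand: cacagaacgCCAGCAGGGGGCgctagaggg
Cyp4f14, chr17:32905388-32905417, minus strand: taccgagagCCAGCAGGGGGCgctgtgaaa
Cyp4f41-ps, chr17:32951629-32951658, minus strand: caccaagtaCCAGCAGGGGGCgcggtggaa

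Most P450 genes of these families were closed at their starts in bladder. A start was called open in an animal when a peak shared at least 1 bp with 500 bp on either side of any annotated transcript start of the gene. By this measure 20 of the 80 members (25%) were open in both animals, against 65.2% of all protein-coding genes. In replicate 1 alone 25 members were open (67.3% of all genes), and in replicate 2 alone 20 (66.5%). The 20 open in replicate 2 were all open in replicate 1, and 5 members had a start peak in replicate 1 only; 3.52% of all genes were open in exactly 1 animal. A footprint lay at a start in both animals in 18 members, against 62.9% of all genes. Cyp4f14 and Cyp4f15 had an open start but no start footprint in replicate 2.

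Open starts were spread unevenly over the families. In family 1, 1 of 3 genes was open, in family 2 7 of 48, in family 3 2 of 9 and in family 4 10 of 20. Subfamilies were set here as liver-type from general knowledge: Cyp1a, Cyp2a, Cyp2b, Cyp2c, Cyp2d, Cyp2e, Cyp3a, Cyp4a and Cyp4f. The label is a name for the class, which also holds genes known from other tissues, such as Cyp2b19 and Cyp2c23. The liver-type subfamilies had 12 of 61 genes open, and the other subfamilies 8 of 19. Of the 12, 8 were Cyp4f genes. Without Cyp4f the liver-type subfamilies had 4 of 52 open: Cyp2d22, Cyp2e1, Cyp3a13 and Cyp3a57. This split was not among the planned classes. It takes out the subfamily with the most open genes, so its low count partly follows from the choice. No start was open in both animals among the 4 Cyp2a, 5 Cyp2b, 15 Cyp2c, 8 Cyp4a and 2 Cyp1a genes. Neighbouring members share sequence and DNA windows, so members are not independent and these counts carry no test.

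**Figure D1:**
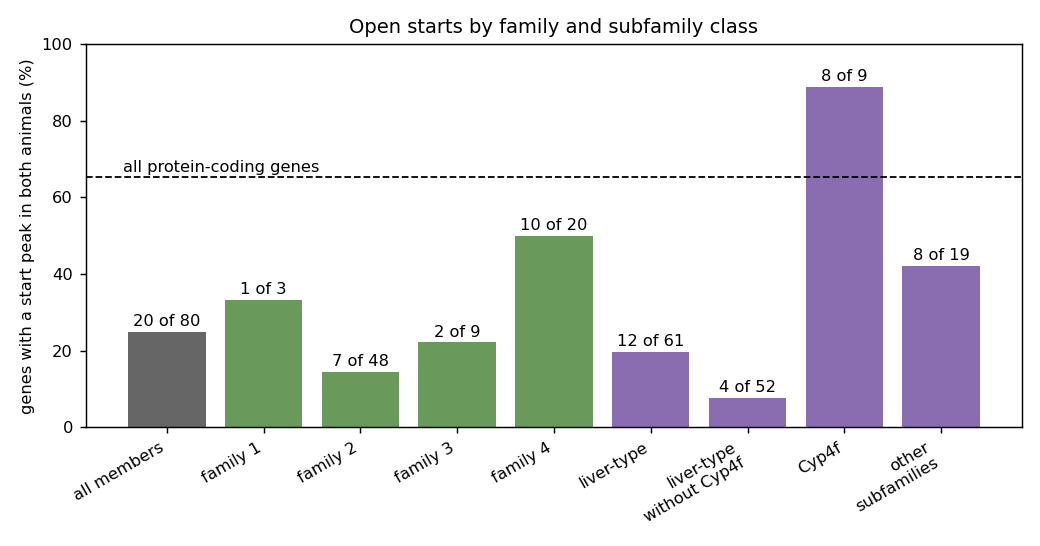
Share of genes with a start peak in both animals (percent, bars from 0, counts above the bars) for all 80 members, for each family, for the liver-type subfamilies with and without Cyp4f, for Cyp4f and for the other subfamilies together. The dashed line is the share among all protein-coding genes, 65.2%. Cyp4f, with 8 of 9 genes, is the only bar above it. The class without Cyp4f was not among the planned classes.

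Where a member was open, its start peak was mostly low. Median start height over the 20 open members was 1.69 in replicate 1 and 1.18 in replicate 2, against 5.08 and 3.63 over all genes open in both animals. In both animals 17 of the 20 lay below the median of all open genes. Heights were higher in replicate 1 in 17 of the 20 members. The median log2 ratio of replicate 2 to replicate 1 was -0.72 in these members and -0.55 over all open genes.

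**Figure D2:**
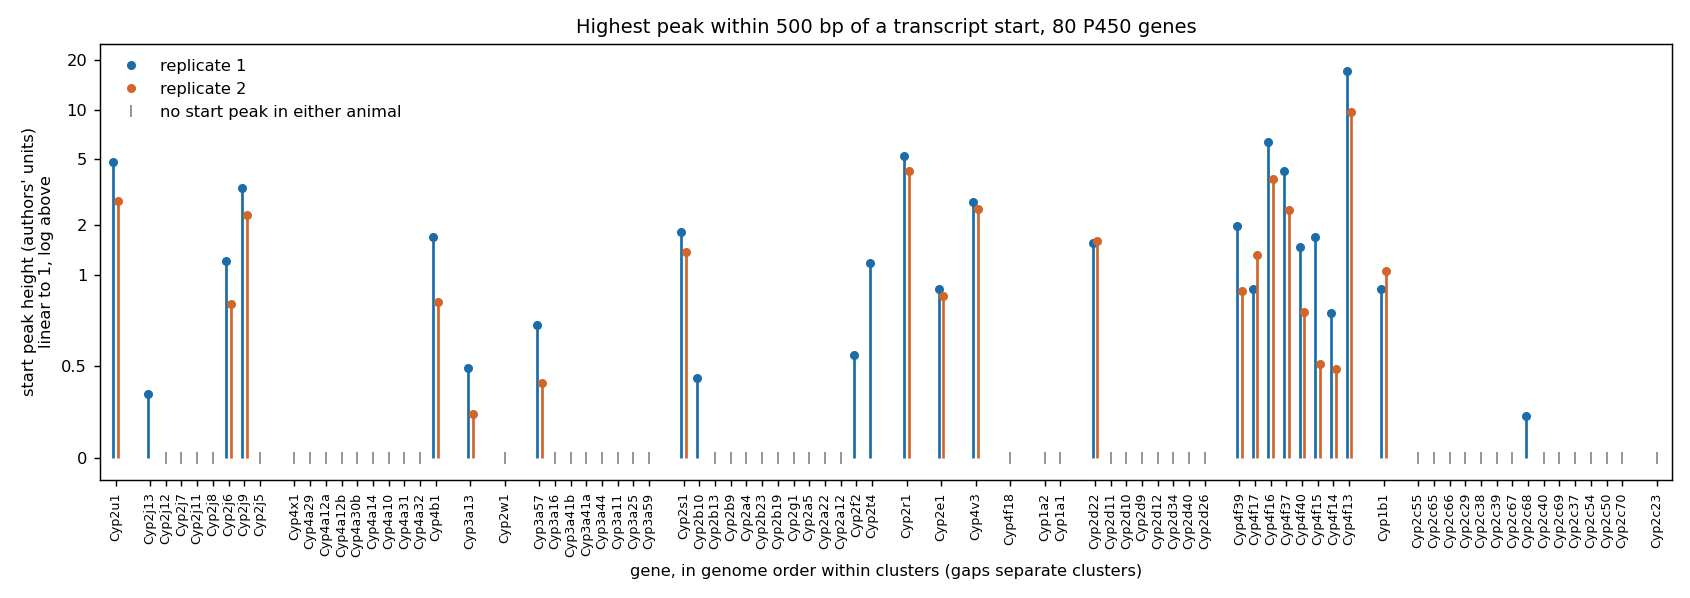
Height of the highest peak within 500 bp of a transcript start (authors' units, axis linear up to 1 and logarithmic above) for each of the 80 members in genome order, with gaps between clusters. Blue and orange points are replicates 1 and 2, and grey ticks are the 55 members with no start peak in either animal; Cyp4f13 is the tallest in both animals, at 17.1 and 9.63.

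Among the AHR-regulated genes of family 1, only Cyp1b1 was open at its starts. Cyp1b1, which hydroxylates oestradiol and activates polycyclic hydrocarbons, had start heights of 0.924 in replicate 1 and 1.04 in replicate 2 (0.984 ± 0.0856, SD, n = 2). Its tallest peak lay further upstream, with heights of 5.57 and 4.56 (5.06 ± 0.710) and a midpoint at -709 bp from the gene start. In both animals this peak was higher than the start peaks. Its 300 bases, shown because they hold 4 AHR cores (GCGTG on either strand, in capitals), also hold a CTCF core within a footprint in each animal.
Cyp1b1, chr17:79715621-79715920, minus strand: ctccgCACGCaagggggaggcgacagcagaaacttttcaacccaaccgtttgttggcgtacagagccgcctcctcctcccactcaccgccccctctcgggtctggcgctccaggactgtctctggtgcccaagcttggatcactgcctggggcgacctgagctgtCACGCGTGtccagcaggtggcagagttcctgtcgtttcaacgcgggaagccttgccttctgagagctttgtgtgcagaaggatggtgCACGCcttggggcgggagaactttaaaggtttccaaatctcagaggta

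Cyp1a1, the classical AHR target that hydroxylates polycyclic hydrocarbons, and its neighbour Cyp1a2, known for arylamine oxidation in liver, had no peak within 500 bp of a start in either animal. At Cyp1a1 the lowest false discovery rate of the cut rate in this window was 0.000455 in replicate 2, and no base was listed in replicate 1. A region with a peak in each animal did lie 813 bp upstream of the nearest annotated start, at chr9:57696401-57696800, within an intron of a longer Cyp1a1 transcript. It had heights of 1.51 in replicate 1 and 1.29 in replicate 2, with 3 and 7 footprints. Its sequence is shown because it holds repeated AHR elements, TNGCGTG on either strand, in capitals.
Cyp1a1, chr9:57696501-57696800, plus strand: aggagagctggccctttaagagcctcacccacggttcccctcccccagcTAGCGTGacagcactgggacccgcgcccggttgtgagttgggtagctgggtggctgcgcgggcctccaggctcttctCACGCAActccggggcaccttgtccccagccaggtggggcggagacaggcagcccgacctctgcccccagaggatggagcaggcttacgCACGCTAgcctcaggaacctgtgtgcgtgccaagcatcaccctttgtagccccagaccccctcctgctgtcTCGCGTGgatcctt
The whole region of 400 bp, which is the replicate 2 peak, held 5 AHR elements, of which 1 lay whole inside a footprint in each animal. The replicate 1 peak ran from 57696441 to 57696700. The elements that start at 57696405, 57696716 and 57696787 lay outside it. Windows of 400 bp were taken about the midpoints of the 84217 replicate 1 peaks that touch a replicate 2 peak. Of these windows, 6.67% held at least 1 element and 8 (0.00950%) at least 4, that of Cyp1a1 among them. The cut of 4 equals the number in the Cyp1a1 window, which was picked for its repeated elements. The share is therefore no independent measure of rarity. Their width is fixed, so they can reach beyond the peak, as at Cyp1a1. A match of these letters is a description and not evidence of binding. Widening the start window to 1000 bp on either side brought Cyp1a1 in and raised family 1 to 2 of 3 open. The other regions near these genes with a peak in each animal lay at the start of Edc3. Their heights in replicates 1 and 2 were 6.24 and 4.69 in 1 region and 0.821 and 0.985 in the other. A peak of 0.829 in replicate 1 only lay in intergenic DNA, nearest to Cyp1a2.

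The genes that supply electrons to P450 enzymes and those of the AHR pathway were open, while other companion lists were open only in part; 65.2% of all genes were open by the same rule. All 4 genes of electron transfer were open in both animals: Por, the P450 reductase, had start heights of 16.0 in replicate 1 and 9.13 in replicate 2 (12.6 ± 4.86, n = 2). Cyb5a, which encodes cytochrome b5, reached 12.8 and 7.47. All 8 listed genes of the AHR pathway were open. Ahr itself had heights of 5.56 and 2.85, its partner Arnt 6.73 and 3.50, and the repressor Ahrr 2.61 and 2.10. Each of these was lower in replicate 2, like most open genes.

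The regulators of xenobiotic and liver genes were open in part. Rxra, the common partner of nuclear receptors, had heights of 4.70 and 3.69, and Ppara, the fatty acid sensor that controls Cyp4a genes in liver, 9.02 and 6.09. Cebpa, Onecut1 and Nr1h4 were also open. The xenobiotic receptors Nr1i2 (PXR) and Nr1i3 (CAR) and the liver factors Hnf4a, Foxa2 and Nr0b2 had no start peak in either animal. Of 14 conjugating and related enzymes 12 were open, all but Gsta1 and Ugt2b34. Of 21 P450 genes outside families 1 to 4, 11 were open, with Cyp46a1, the brain cholesterol hydroxylase, the highest at 19.4 and 11.1.

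In family 2 the open genes lay mainly outside the large drug-metabolising clusters. Cyp2r1, a vitamin D 25-hydroxylase, had start heights of 5.23 in replicate 1 and 4.26 in replicate 2 (4.75 ± 0.686, n = 2). Cyp2u1, a fatty acid hydroxylase, had 4.79 and 2.80 (3.80 ± 1.41). These were the highest start peaks of the family, and in both animals they exceeded those of the other family 2 genes. Cyp2j9 and Cyp2j6, members of the arachidonic acid epoxygenase subfamily Cyp2j, had 3.36 and 2.28 (2.82 ± 0.762) and 1.21 and 0.841 (1.02 ± 0.260). Of the other 6 Cyp2j genes, Cyp2j13 had a peak of 0.347 in replicate 1 only and 5 had none. Cyp2s1, an extrahepatic P450 known from epithelia, had 1.82 and 1.37 (1.60 ± 0.323).

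Cyp2d22 and Cyp2e1 were the open members of the liver-type family 2 clusters. Cyp2d22 had start heights of 1.56 in replicate 1 and 1.60 in replicate 2 (1.58 ± 0.0294, n = 2), with 11 and 6 start footprints. It lies at the edge of the Cyp2d cluster, and the other 7 Cyp2d genes had no start peak in either animal. Cyp2e1, which oxidises ethanol, had 0.924 and 0.883 (0.903 ± 0.0285), and its start peak was the only peak in its gene body and the 10 kb around it. With the smaller peak lists Cyp2e1 was not open. Peaks in replicate 1 alone lay at the starts of Cyp2t4 (1.17), Cyp2f2 (0.561), Cyp2b10 (0.434) and Cyp2c68 (0.229). Cyp2f2 is known as the club cell P450 of lung, and Cyp2b10 as the main target of CAR. At Cyp2t4 the false discovery rate reached 0.000338 in replicate 1 and 0.0471 in replicate 2, so that a rate of at most 0.05 in place of peaks counted 21 open members, against 66.0% of all genes by that rule.

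Family 3 was nearly closed. Cyp3a13, which lies apart from the main Cyp3a cluster, had start heights of 0.489 in replicate 1 and 0.238 in replicate 2 (0.364 ± 0.178, n = 2). Cyp3a57, at the edge of the cluster, had 0.726 and 0.408 (0.567 ± 0.225). These were the lowest start peaks among the 20 open members, and neither remained when the higher 50% of peaks of each animal were taken. The other 7 genes, among them the main liver gene Cyp3a11, had no start peak in either animal.

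In family 4 the open genes were Cyp4b1, Cyp4v3 and 8 Cyp4f genes. Cyp4b1 had start heights of 1.69 in replicate 1 and 0.849 in replicate 2 (1.27 ± 0.594, n = 2), below the median of all open genes in both animals. Cyp4v3, a widely expressed fatty acid hydroxylase, had 2.76 and 2.50 (2.63 ± 0.188). The neighbours of Cyp4b1, Cyp4x1 and 8 Cyp4a genes that include the PPARα target Cyp4a10, had no start peak in either animal.

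The Cyp4f genes, whose products hydroxylate leukotrienes and long-chain fatty acids, formed the open cluster of the set. Cyp4f13 had heights of 17.1 in replicate 1 and 9.63 in replicate 2 (13.3 ± 5.26, n = 2), which stood at percentiles 98.2 and 98.1 among all open genes. Cyp4f16 had 6.33 and 3.81 (5.07 ± 1.79), near the middle of all open genes at percentiles 59.4 and 52.4. The remaining genes were lower: Cyp4f39 had 1.96 and 0.909, Cyp4f40 1.48 and 0.798, Cyp4f17 0.924 and 1.32, Cyp4f15 1.69 and 0.510, and Cyp4f14 0.789 and 0.484. The order of Cyp4f13 above Cyp4f16 above these was the same in both animals, while the order among the low genes differed between animals. Cyp4f37 reached 4.22 and 2.47, but this peak covers its stop codon, 439 bp from an annotated inner start, and it does not count when only the most upstream start is used. With the smaller peak lists Cyp4f15 was not open, and with the higher 50% of peaks neither Cyp4f14 nor Cyp4f15 was. The open Cyp4f genes then numbered 7 and 6, against 60.5% and 58.7% of all genes by the same rules.

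In 4 of the 8 open Cyp4f genes the start peak had its midpoint at a similar distance upstream of the start: the 3 printed above and Cyp4f15, at -77 bp. The share of all open genes with a start peak at this distance was not counted, so the number is a description only. The other open Cyp4f genes differed. In Cyp4f17 the region at the start joined 2 peaks of each animal over 899 bp, with its midpoint at -111 bp from the nearest annotated start. The midpoint lay 53 bp downstream of the nearest start in Cyp4f14 and 60 bp downstream in Cyp4f40. The Cyp4f37 peak lay at its stop codon. Over the 150 bases before the start, Cyp4f13 and Cyp4f16 shared 106 bases (70.7%), the highest identity among the 9 Cyp4f genes, and Cyp4f13 and Cyp4f37 shared the fewest, 51.3%. Identity between unrelated promoters was not computed. Of the 32-base words in the Cyp4f16 start peak, 54.4% occur only once in the genome, so part of this sequence also occurs elsewhere. The sources used here do not say how reads from repeated sequence were placed.

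Peaks within 200 bp of a stop codon were found in the Cyp4f genes and in no other member. This was noticed after the peaks had been seen, and it is given as a description. A peak touched 200 bp on either side of an annotated stop codon in both animals in 8 of the 9 Cyp4f genes, in 0 of the 71 other members, and in 5.78% of all protein-coding genes with an annotated stop codon. Cyp4f15, the exception, had such a peak in replicate 1 only, with a height of 1.17. The highest was that of Cyp4f17, with 4.99 in replicate 1 and 3.08 in replicate 2, above its own start peak in both animals. Cyp4f37 followed with 4.22 and 2.47, Cyp4f13 with 2.73 and 1.65, and Cyp4f16 with 2.25 and 1.72. Cyp4f18, a single locus on chromosome 8, had no start peak in either animal but a stop codon peak of 1.66 and 1.18. This peak also lies within the overlapping gene Zfp961. The stop codon peaks of Cyp4f14, Cyp4f40 and Cyp4f39 were lower. They lay between 0.726 and 1.12 in replicate 1 and between 0.527 and 0.866 in replicate 2. In 3 genes (Cyp4f13, Cyp4f37 and Cyp4f39) the peak also lies within 500 bp of an annotated inner start; without such peaks 5 Cyp4f genes and 4.44% of all genes were counted.

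**Figure D3:**
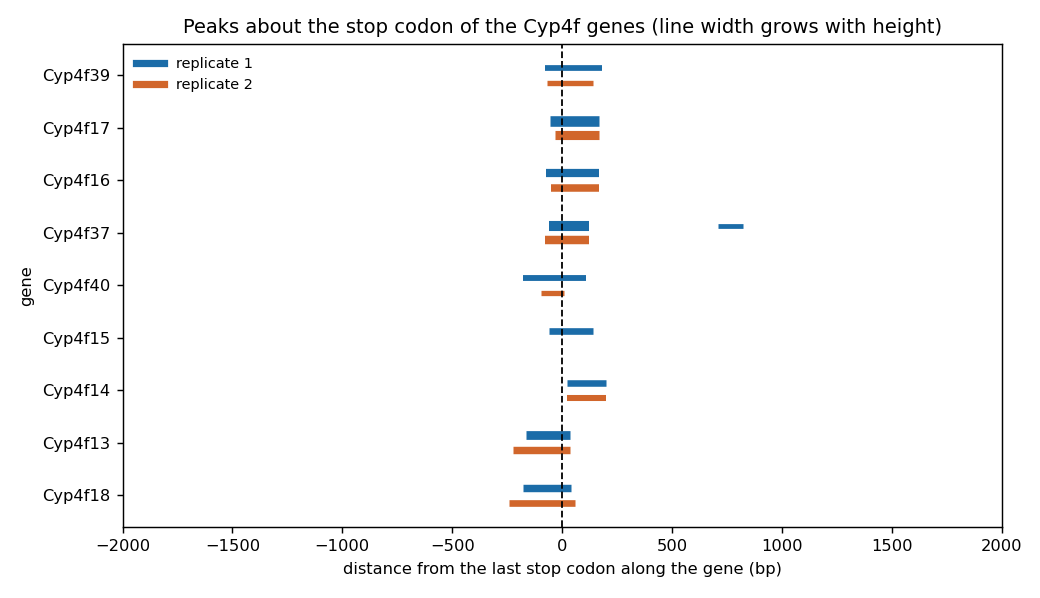
Position of peaks relative to the last stop codon of each of the 9 Cyp4f genes (x axis, bp along the gene, dashed line at the stop codon), with replicate 1 in blue, replicate 2 in orange and line width growing with height. Every gene has a peak within 200 bp of the stop codon in replicate 1, and all but Cyp4f15 in replicate 2; that of Cyp4f14 runs from 21 to 200 bp after it.

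In 4 of these genes, the CTCF core printed above lay inside a footprint in each animal. The core began 68 bp after the stop codon in Cyp4f17 and in Cyp4f16, whose 30 bases are identical, 18 bp after it in Cyp4f37 and 93 bp after it in Cyp4f14. Another copy lay in the pseudogene Cyp4f41-ps next to Cyp4f13, in a peak of 3.78 and 2.27. All 5 cores lay on the strand of their gene. Of the 32-base words in these peaks, 93.1% were unique in Cyp4f17, 84.7% in Cyp4f16 and all in Cyp4f37, Cyp4f14 and Cyp4f41-ps. Over the whole set, 200 bp were taken about the midpoint of the highest replicate 1 peak in each region found in both animals. A CTCF core lay in 14 of these 86 windows (16.3%). Genome-wide it lay in 10.4% of such windows about the 84217 replicate 1 peaks that touch a replicate 2 peak. The 5 cores printed above are among the 14, so the windows are not independent.

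Accessible regions around the genes were sparse in some clusters and dense in others. The gene bodies with 10 kb on either side covered 3521 kb after overlaps were merged and held 157 regions, of which 86 were found in both animals, 51 in replicate 1 only and 20 in replicate 2 only. This gave 2.44 regions found in both animals per 100 kb. Over the whole of chromosomes 1 to 19, X and Y, 3.09 replicate 1 peaks per 100 kb touched a replicate 2 peak. Of the 86, 30 lay within 500 bp of a member's start and 5 at starts of other protein-coding genes (Cox19, Egln2 and Edc3). Per gene, the median number of peaks per 10 kb was 0.245 in replicate 1 and 0.197 in replicate 2, against 0.784 and 0.688 over all genes. No peak at all was found in either animal around 26 of the 80 members (32.5%), against 15.7% of all genes.

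The closed clusters differed in how many regions they held, and the subfamilies without an open start were not equally sparse. The main Cyp2c cluster on chromosome 19, with 14 genes and 905 kb of merged domains, held 1 region found in both animals (0.111 per 100 kb), in an intron of Cyp2c70 with heights of 0.339 and 0.246. The 8 Cyp4a genes had 1 region (0.331 per 100 kb) and the main Cyp3a cluster 2 (0.482 per 100 kb). Cyp2j and Cyp2d had 0.817 and 1.01 per 100 kb. Cyp2a, Cyp2b and Cyp1a, which had no start open in both animals either, had 3.56, 3.37 and 6.40 per 100 kb. Of the 3 Cyp1a regions, 2 lay at the start of Edc3. The genome's 3.09 counts replicate 1 peaks over whole chromosomes, DNA far from genes included, and is not a like measure. Median peaks per 10 kb around single genes were 0.356 in replicate 1 and 0.359 in replicate 2 for Cyp2a. They were 0.366 and 0.366 for Cyp2b, and 0.605 and 0.418 for Cyp1a. All lay below the 0.784 and 0.688 over all genes. At the other end, the Cyp4f cluster on chromosome 17 had 22 regions in 281 kb (7.84 per 100 kb), and 12 of these lay at member starts. The Cyp2 cluster on chromosome 7 that runs from Cyp2s1 to Cyp2t4 had 23 regions (4.90 per 100 kb), although Cyp2s1 was its only gene open in both animals. The domains of these genes also hold repeated sequence. The share of words unique in the genome had a median over genes of 64.8% in Cyp2c, 59.8% in Cyp4a and 67.0% in Cyp3a. It was 75.1% in Cyp2j, 73.7% in Cyp2d and 91.0% in Cyp4f. Cyp2a, with more regions per 100 kb than the sparse subfamilies, had the lower share of 44.6%. Cyp2b had 79.6% and Cyp1a 93.2%. What part repeated sequence has in these region counts was not tested.

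**Figure D4:**
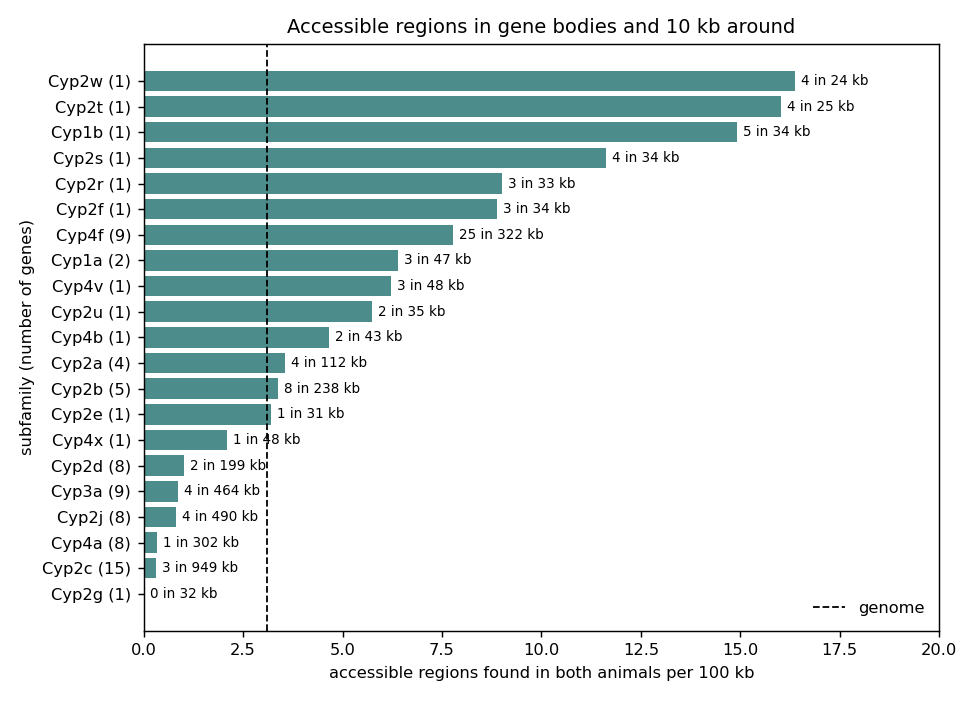
Accessible regions found in both animals per 100 kb of gene body with 10 kb on either side, by subfamily (number of genes in brackets, bars from 0, with the regions and the merged length beside each bar). The dashed line is the genome, 3.09 replicate 1 peaks that touch a replicate 2 peak per 100 kb of whole chromosomes. Cyp2c, Cyp4a, Cyp2j, Cyp3a and Cyp2d fall well to its left. Cyp4f, at 7.77, falls to its right, as do Cyp2a, Cyp2b and Cyp1a, at 3.56, 3.37 and 6.40. Of the 3 Cyp1a regions, 2 lay at the start of Edc3.

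Some closed genes had strong regions nearby. Among members without a start peak in either animal, Cyp2w1, a P450 known from fetal gut and tumours, had the densest surroundings, with 3.28 and 1.64 peaks per 10 kb. Most of these belong to its neighbours, and the start of Cox19 alone had heights of 12.6 and 8.03. A region in an intron of Cyp2w1, 745 bp from an inner annotated start, had 3.64 and 2.50. Cyp2b19, the keratinocyte member of its subfamily, had a region in the intergenic DNA downstream of the gene with heights of 2.24 and 1.53. Cyp2c23, the renal epoxygenase that lies apart from its cluster, had one in an exon with 2.64 and 1.75. Upstream of Cyp2f2, a region with its midpoint at -1609 bp had 1.78 and 1.43 with 9 footprints in each animal. Cyp4f18, Cyp2d11 and Cyp1a1 were the other densest closed genes, with means of 1.22, 1.01 and 0.836 peaks per 10 kb. The values of Cyp4f18 differed between animals, at 0.729 in replicate 1 and 1.70 in replicate 2. All peaks counted for Cyp2d11 lay within 500 bp of a start of its open neighbour Cyp2d22. Those counted for Cyp1a1 include the peaks at the start of Edc3.

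The start windows of these genes differed in base composition from those of most genes. The ratio of observed to expected CpG within 500 bp of the most upstream start had a median of 0.129 in members and 0.552 over all genes. It exceeded 0.6 in 3 members, Cyp2r1 (0.758), Cyp2u1 (0.704) and Cyp4v3 (0.692), against 45.9% of all genes, and all 3 were open. At a ratio of at most 0.2, 9 of 59 members were open against 14.8% of all genes in that range. Between 0.2 and 0.4, 4 of 13 were open against 42.3%, and between 0.4 and 0.6, 4 of 5 against 76.7%. Most members lie in the CpG-poorest of these ranges. A TATA box (TATAAA on either strand) was found in 58.75% of member windows and 32.3% of all windows, and a GC box (GGGCGG) in 27.5% and 60.4%.

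Repeated sequence was found mainly at members that were not open. In 13 of the 60 members not open in both animals, under 50% of the 32-base words in the start window were unique in the genome, and in none of the 20 open ones. This was so in 7.13% of all protein-coding genes, and in 1.29% of those open in both animals. A low share at open starts was thus not particular to members. Among the 38 members with at least 90% unique words, 16 were open (42.1%), against 73.0% of all genes so defined, and among the other 42 members 4 were open. In the liver-type subfamilies without Cyp4f, a split that takes out the subfamily with the most open genes, 3 of 15 genes with at least 90% unique words were open. What part repeated sequence has in the low counts was not tested.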

How the data were processed

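DNase-seq data of 2 bladders were used. The authors deposited 2 peak lists, footprints and per-base false discovery rates per animal, on mm10 per the labels. The authors give each peak a height, which is a signal. The aligner, the peak caller and the scaling of heights are not named in the sources used here. Deposited p-value type columns hold a false discovery rate for local cutting, up to 0.05, and for footprints a constant threshold of 0.01. The larger list was used, and the smaller one (73247 and 61717 peaks) as an alternative.

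Peaks and footprints were overlapped (at least 1 bp) with starts and gene bodies of GENCODE M21 on GRCm38, using Python 3.11.15, numpy 2.4.6, pandas 2.3.3, pysam 0.24.0, numba 0.67.0, Biopython 1.88, samtools 1.23.1 and matplotlib 3.10.9. The overlap code was tested on simulated data, where 0 of 500 windows differed. A region merged touching peaks of both animals. Uniqueness was the share of 32-base words found once in the genome, on both strands. In all, 17 motifs were searched on both strands, as exact letters.

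Named members were those with a start peak or start footprint, a fixed set (Cyp1a1, Cyp1a2, Cyp1b1, Cyp2e1, Cyp2f2, Cyp2s1, Cyp3a11, Cyp3a13, Cyp4a10, Cyp4b1, Cyp4f13 and Cyp4v3) and the 5 closed members with the densest surroundings. Cyp2c23, Cyp2c70, Cyp4x1 and Cyp4f41-ps, and the regions singled out near closed genes, were named after their values were seen. Members and lists were chosen with earlier results of these data known. Cyp2ab1 has a subfamily of 2 letters, falls outside the rule and had no start peak. No test was run, because the design has 1 group. A further gene of the regulator list is not reported here.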

Additional observations from a re-analysis of the deposited data

How the results depend on the processing

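No paired analysis was possible because the samples form 1 group and no test was made. With both animals, the count of 20 open members ranged from 16 (smaller peak lists, or the higher 50% of peaks) to 22 (1000 bp on either side of a start). The shares over all genes were 60.5% with the smaller lists, 58.7% with the higher 50% of peaks and 66.8% within 1000 bp. When either animal was left out, the count was 20 to 25. All genes then gave 66.5% without replicate 1 and 67.3% without replicate 2. Family 1 had 0 open genes with the smaller lists and 2 within 1000 bp, and family 3 had 1 with the smaller lists and 0 with the higher 50% of peaks. Family 2 had 7 to 12 when 1 animal was left out. The median of 0.207 peaks per 10 kb around members fell to 0 with the smaller lists and with the higher 50% of peaks, to 0.0738 in gene bodies only and to 0.158 without the members' own start peaks, and was 0.197 to 0.245 when 1 animal was left out. Median start height over open members was 1.35 for the highest peak and 2.72 when all peaks in the window were summed. Summing also moved the height of 7 of 20 single members by more than the SD over animals, and a window of 1000 bp moved 1 of 20 (Cyp1b1). The Cyp4f genes with a stop codon peak numbered 8, against 5.78% of all genes. They numbered 6 with the smaller lists or the higher 50% of peaks, against 3.74% of all genes by either rule. With peaks near an annotated start left out they numbered 5, against 4.44%. These alternatives, and the count among members with at least 90% unique words (16 open), were chosen after seeing the data. Depth is unknown, so a start without a peak is below the authors' calling threshold and not shown to be closed in every cell.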
